A study of Drosophila melanogaster with 13 samples.

Results

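The genes sxc, Oga, Gfat1, Gfat2, CG1969, nst and mmy of Drosophila melanogaster make the sugar donor of protein O-GlcNAc, attach the sugar or remove it. They are described here in RNA of the fly proboscis. They were chosen by name, with earlier results of these data known, and are 7 of the 13893 genes listed in the tables. For sxc each of its 3 annotated transcripts is also described. The data are 13 RNA sequencing libraries in 4 groups, and a library held many dissected proboscises, the feeding organ that carries the labellum and its taste hairs. The sugar diet group (n = 2) and the control diet group (n = 2) were flies of the parental genotype that fed for 7 days on high sugar food or on the normal cornmeal diet, with 200 proboscises per library. The OGT RNAi group (n = 5) carried Gr5a-GAL4 and UAS-OGT RNAi, the Gal4 control group (n = 4) carried Gr5a-GAL4 alone, and both of these groups spent 7 days on the high sugar diet, with 20 proboscises per library. Gr5a-GAL4 drives expression in sweet taste neurons, a small share of the cells of a proboscis, so the RNAi acts in those cells while the RNA comes from the whole organ. The strain, sex and age at the start of the diet are not given in the sources used here. The experiments differed in library kit and input, so levels were compared only within an experiment.

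The hexosamine pathway branches off glycolysis at fructose-6-phosphate. Glutamine:fructose-6-phosphate aminotransferase (Gfat1 and Gfat2) takes the first, rate-limiting step, glucosamine-6-phosphate N-acetyltransferase (CG1969, called Gnpnat in the annotation) adds the acetyl group, phosphoacetylglucosamine mutase (nst) moves the phosphate, and UDP-N-acetylglucosamine pyrophosphorylase (mmy) makes UDP-GlcNAc. The O-GlcNAc transferase OGT, encoded by sxc, attaches the sugar to serines and threonines of nuclear and cytosolic proteins, and the O-GlcNAcase Oga removes it. Because the donor is made from glucose, glutamine, acetyl-CoA and UTP, the pathway is regarded as a sensor of nutrients. In Drosophila, sxc is also a Polycomb group gene.

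The libraries held 5632566 to 13884974 counts in genes, and a count of 0 allows up to 3 counts, or 0.2161 to 0.5326 CPM (counts scaled to a common library total), for counting error only. In the diet experiment the most abundant gene took 12.63 and 13.4% of counts on the sugar diet and 7.4 and 7.51% on the control diet. On the TPM scale (transcript abundance per length, relative to the library) the median log2 change of all genes on the sugar diet was -0.25. Changes are given from counts normalised with edgeR's TMM factors, where that median was 0.0, unless stated. Markers of neurons were present in every library, with summed levels of 428 to 476 and 426 to 437 CPM in the diet groups and 259 to 433 and 295 to 417 CPM in the RNAi groups. The glial marker wrapper and the fat body markers Lsp2 and Yp1 were not tested in either comparison, since too few libraries held enough counts. Yp1 stood apart in OGT RNAi replicate 2, with 108 counts (9.48 CPM), where the other 12 libraries had 0 to 16. In bulk RNA, fewer cells of a type and less RNA per cell cannot be told apart.

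The target of the RNAi, sxc (FBgn0261403, chromosome 2R, 5307288 to 5329555, plus strand), was measured at 138, 170, 133, 135 and 136 CPM in the 5 OGT RNAi libraries, in replicate order. The 4 Gal4 controls were at 163, 142, 170 and 174 CPM. The sequence of the RNAi hairpin is not given in the sources used here, and whether its own RNA adds to the sxc counts of the OGT RNAi libraries was not tested. The groups overlapped, because OGT RNAi replicate 2 lay with the higher controls and Gal4 control replicate 2 lay close to the lower RNAi libraries. The log2 change was -0.19 (SE 0.086), a difference of -12.2% with a 95% interval of -22.7 to -0.291%, at an unadjusted p of 0.0456 and an adjusted p of 0.376 in edgeR's quasi-likelihood test over 9400 genes. It did not pass the threshold of an adjusted p of 0.05. Without OGT RNAi replicate 2 the log2 change was -0.26 (adjusted p = 0.104), and over all alternatives it ranged from -0.26 to -0.15 with adjusted p from 0.104 to 0.734. The high Yp1 count fell in the same replicate 2, and its part in the sxc level there was not tested. The authors' deposited table gives an effect of -0.1284 on the natural log scale (p = 0.0138, q = 0.203). The Gal4 sequence of the driver was itself quantified. It had 11, 15, 17, 16 and 18 counts in the OGT RNAi libraries and 41, 28, 20 and 26 counts in the Gal4 control libraries. Its level was 0.798 to 1.97 CPM (median 1.32) against 1.84 to 3.08 CPM (median 2.3), and the ranges overlapped at OGT RNAi replicate 4. The log2 change was -0.86 (SE 0.258, adjusted p = 0.143), and it passed the threshold without OGT RNAi replicate 4 (-1.02, adjusted p = 0.0473). In the diet libraries the Gal4 sequence had 0 counts, which allows up to 0.3701 to 0.5326 CPM.

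The cells the driver marks were measured through 8 sweet taste receptor genes. Their summed level was 52.6, 69.0, 73.0, 74.5 and 55.6 CPM in the OGT RNAi libraries and 87.0, 89.6, 72.7 and 71.9 CPM in the Gal4 controls. The sums overlapped, with the lowest 2 in RNAi replicates 1 and 5. Of the 8 receptors 0 were called by edgeR, by DESeq2 or by limma, beside 1.27% of all genes in edgeR. In edgeR 3 had an unadjusted p under 0.05, beside 12.9% of all genes. The log2 changes of 6 lay below 0, with a median over the 8 of -0.34 beside 0.0 over all genes. Gr64b and Gr64c had the same counts in 12 of 13 libraries and are close to 1 measurement. Without Gr64c, a choice made after seeing the data, 2 of 7 had an unadjusted p under 0.05, 5 lay below 0, and the sums were 39.7 to 56.5 CPM against 55.8 to 69.2 CPM. Gr5a itself, the trehalose receptor whose promoter drives Gal4, had a log2 change of -0.39 (SE 0.245, adjusted p = 0.557). The fitted changes of sxc, Gal4 and Gr5a were all below 0 and none passed the threshold. In the Gal4 controls sxc was lowest in replicate 2, where the receptor sum was highest, and in OGT RNAi sxc was highest in replicate 2 and the receptor sum and Gal4 in replicate 4. sxc was read in RNA of the whole organ, so these single libraries cannot decide on its level in the driver's cells. The part of the receptors' and Gal4's levels in the sxc result was not tested.

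**Figure D1:**
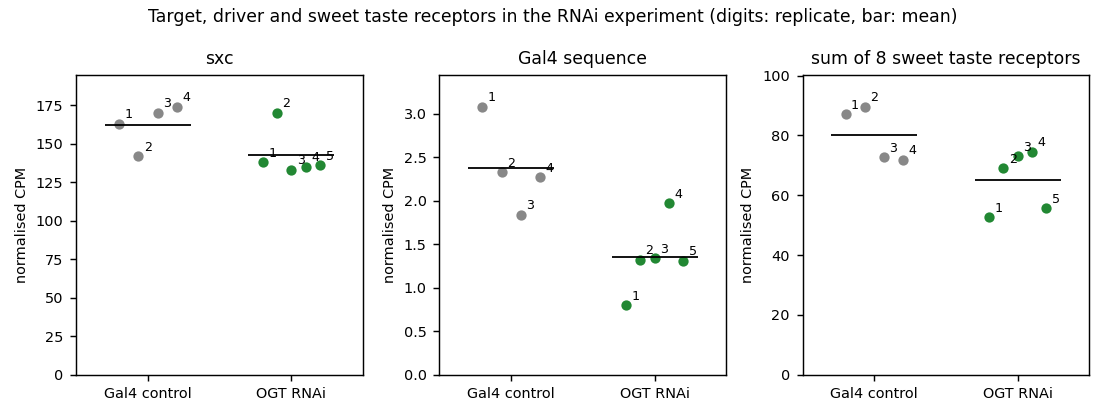
Normalised CPM of sxc (left), of the Gal4 sequence (middle) and of the sum of 8 sweet taste receptor genes (right) in the 4 Gal4 control and 5 OGT RNAi libraries, with axes from 0. Points are libraries with their replicate numbers and bars are group means; sxc in OGT RNAi replicate 2, at 170 CPM, sits with the controls.

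On the sugar diet, sxc was at 52.6 and 47.8 CPM, against 53.8 and 56.4 CPM on the control diet. Both sugar diet libraries were lower, by a small margin. The log2 change was -0.14 (SE 0.112, 95% interval -0.37 to 0.10, adjusted p = 0.596 in edgeR over 8825 genes). A fall of over 22.9% or a rise of over 7.16% lies outside that interval. The authors' deposited table gives -0.0912 on the natural log scale with a q of 0.832.

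Oga (FBgn0038870, 3R, 21219077 to 21222843, plus strand), which takes the sugar off again, was at 11.9 and 12.0 CPM on the sugar diet and 12.6 and 13.5 CPM on the control diet. It was lower in both sugar diet libraries, with a log2 change of -0.13 (SE 0.189, adjusted p = 0.79). In the RNAi experiment Oga ranged from 22.4 to 28.1 CPM in the OGT RNAi libraries and from 21.9 to 26.7 CPM in the controls. These ranges overlapped from 22.4 to 26.7 CPM (log2 change 0.12, SE 0.089, adjusted p = 0.635 in edgeR). The ratio of sxc to Oga, taken per length as TPM, was 4.02 ± 0.275 (SD, n = 2) on the sugar diet and 3.99 ± 0.0496 (n = 2) on the control diet. It was 5.28 ± 0.782 (n = 5) in OGT RNAi and 6.59 ± 1.1 (n = 4) in the Gal4 control, where single libraries ran from 4.59 to 6.43 and from 5.06 to 7.4. The ratio is a description and was not tested.

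The entry enzyme Gfat1 (FBgn0027341, 3R, 4126442 to 4137882, plus strand) was the only member whose libraries did not overlap between the RNAi groups. It was at 578, 491, 558, 504 and 526 CPM in OGT RNAi replicates 1 to 5 and at 446, 472, 488 and 462 CPM in the Gal4 controls. All 5 RNAi libraries lay above all 4 controls, the nearest pair being 491 and 488 CPM. The log2 change was 0.19 (SE 0.068, 95% interval 0.04 to 0.33), a difference of 13.8%, with an unadjusted p of 0.0155 and an adjusted p of 0.244 in edgeR. Over the alternatives it stayed between 0.15 and 0.21, with adjusted p from 0.152 to 0.589, and the authors' deposited table has p = 0.00548 and q = 0.12. Of all genes tested, 5.54% did not overlap between these groups. On the sugar diet Gfat1 was at 152 and 157 CPM and on the control diet at 148 and 137 CPM. The groups did not overlap (log2 change 0.12, SE 0.083, adjusted p = 0.514 in edgeR), beside 47.5% of all genes on the diet. The sign turned on the TPM scale (-0.14), where the median gene was at -0.25.

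Gfat2 (FBgn0039580, 3R, 28337019 to 28339765, minus strand), the second aminotransferase gene, was at 19.2 and 21.7 CPM on the sugar diet and at 19.3 and 20.7 CPM on the control diet. The diet groups overlapped (log2 change 0.04, SE 0.159, adjusted p = 0.943 in edgeR). The sign was negative on the TPM scale, where the median gene was at -0.25. In the RNAi experiment Gfat2 ranged from 40.9 to 47.5 CPM against 39.3 to 43.0 CPM (log2 change 0.07, SE 0.069, adjusted p = 0.755). Per length, Gfat1 exceeded Gfat2 in every library, by 7.38 ± 0.472 times on the sugar diet, 6.87 ± 0.646 times on the control diet, 12.0 ± 0.813 times in OGT RNAi and 11 ± 0.904 times in the Gal4 control.

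The acetyltransferase gene CG1969 (FBgn0039690, 3R, 29738275 to 29741952, plus strand) had the largest diet difference of the 7 members. It was at 4.15 and 5.6 CPM on the sugar diet, from 21 and 35 counts, and at 7.25 and 7.05 CPM on the control diet, from 58 and 62 counts. Both sugar diet libraries were lower. The log2 change was -0.54 (SE 0.273, 95% interval -1.11 to 0.04, adjusted p = 0.329 in edgeR). With limma on log2(TPM + 1) it was -0.84 (adjusted p = 0.0281), a call, with the median gene at -0.25 on that scale. Over the alternatives the adjusted p ran from 0.0272 to 0.813, and the authors' deposited table gives p = 0.0473 and q = 0.383. In the RNAi experiment CG1969 ranged from 12.5 to 20.3 CPM against 14.7 to 17.5 CPM, so the RNAi libraries spanned the controls (log2 change 0.01, SE 0.131, adjusted p = 0.986).

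The mutase gene nst (FBgn0036298, 3L, 12527215 to 12530171, minus strand) was at 11.3 and 10.1 CPM on the sugar diet and 9.76 and 11.4 CPM on the control diet (log2 change 0.01, SE 0.207, adjusted p = 0.994). In OGT RNAi it was at 22.6 to 31.3 CPM with the highest values in replicates 4 and 5, and in the controls at 20.4 to 25.9 CPM (log2 change 0.13, SE 0.112, adjusted p = 0.702). The groups overlapped in both experiments.

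The last enzyme, mmy (FBgn0259749, 2L, 6468538 to 6473904, minus strand), known in flies for its part in chitin and cuticle formation, was at 36.6 and 43.5 CPM on the sugar diet and 34.4 and 33.0 CPM on the control diet. Both sugar diet libraries were higher (log2 change 0.25, SE 0.134, 95% interval -0.03 to 0.54, adjusted p = 0.35 in edgeR). The sign turned on the TPM scale (-0.034), where the median gene was at -0.25. In the RNAi experiment mmy ranged from 74.7 to 92.1 CPM against 78.6 to 86.4 CPM (log2 change 0.05, SE 0.071, adjusted p = 0.821).

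**Figure D2:**
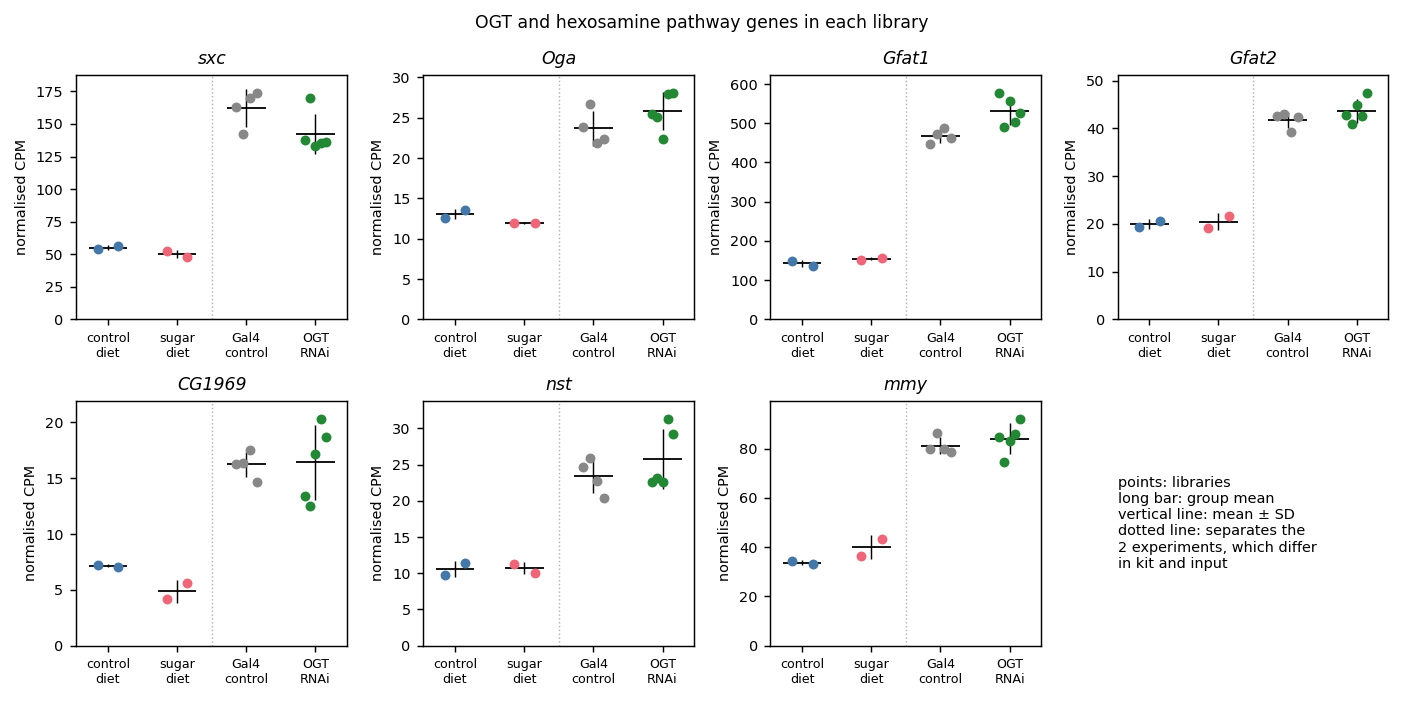
Normalised CPM of the 7 members in every library, one panel per gene with its own axis from 0. Points are libraries, long bars group means and vertical lines mean ± SD; the dotted line parts the diet experiment (n = 2 and 2) from the RNAi experiment (n = 4 and 5), and only Gfat1 is free of overlap between Gal4 control and OGT RNAi.

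As a set, 0 of the 7 members were called by edgeR in the diet comparison, where 6.47% of all genes were called, and 0 had an unadjusted p under 0.05, beside 17.7% of all genes. DESeq2 called 0 and limma on TPM called 1, CG1969, on a scale where the median gene was at -0.25. The share of all genes that limma called is not given here, so 1 of 7 cannot be judged against it. The diet groups did not overlap for 5 of the 7, beside 47.5% of all genes. In the RNAi comparison 0 of the 7 were called by edgeR, DESeq2 or limma, beside 1.27% of all genes in edgeR. In edgeR 2, Gfat1 and sxc, had an unadjusted p under 0.05, beside 12.9% of all genes. In that comparison 6 of the 7 log2 changes lay above 0, and sxc was the 1 below. Among the 6, CG1969 was close to 0 (0.01, SE 0.131), and its sign turned in 8 of 16 alternatives. The medians were 0.01 and 0.07, beside 0.0 over all genes in each comparison.

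Per length, the order of levels was close to the same in every group. Gfat1 was highest, at 79.8 ± 13.9 TPM (SD, n = 2) on the sugar diet, 87.4 ± 0.728 on the control diet, 257 ± 22.3 (n = 5) in OGT RNAi and 230 ± 6.57 (n = 4) in the Gal4 control. mmy and sxc came next and then Gfat2, and Oga was lowest, at 4.62 ± 0.734, 6.13 ± 0.613, 9.24 ± 0.857 and 8.71 ± 0.937 TPM. sxc stood at 18.5 ± 1.68, 24.4 ± 2.14, 48.5 ± 6.25 and 56.6 ± 4.49 TPM in the same order of groups. It followed mmy except in the Gal4 control, where it led by an overlapping margin, and in OGT RNAi the libraries of mmy and sxc overlapped too. nst and CG1969 changed places between the diet groups, and on the sugar diet CG1969 overlapped both nst and Oga. In OGT RNAi, Gfat2 overlapped CG1969, which overlapped nst.

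The 3 sxc transcripts carry the same coding sequence of 3177 bases and differ in their untranslated ends. FBtr0086084 (3498 bases) and FBtr0086085 (3557 bases) have a short first exon of 65 bases and a second exon of 180 or 239 bases, FBtr0086086 (3678 bases) retains this stretch as 1 exon of 365 bases, and its last exon is 546 bases long in place of 486. Since reads from the shared exons fit all 3, their counts are kallisto's estimate of a split, and its uncertainty is not in the tests. On the sugar diet FBtr0086085 took 82.78 and 82.64% of sxc counts, and on the control diet 68.63 and 64.03%. FBtr0086086 took 17.22 and 0% against 31.37 and 26%, and FBtr0086084 took 0 and 17.36% against 0 and 9.97%. FBtr0086085 and FBtr0086086 did not overlap between the diets, where the shares of 34.3% of all transcripts tested in genes with several transcripts did not, and the exact two-sided permutation test gave p = 0.333 for each, the smallest that 2 against 2 libraries allow, and 1.0 for FBtr0086084. The 0 estimates fell on a different minor transcript in each sugar diet library.

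In the RNAi experiment all 3 sxc transcripts were estimated above 0 in every library. FBtr0086085 took 60.6 ± 7.03% (SD, n = 5) in OGT RNAi and 64.9 ± 8.41% (n = 4) in the controls, FBtr0086086 took 26.4 ± 4.54% and 21.1 ± 7.88%, and FBtr0086084 took 13 ± 2.81% and 14.0 ± 3.34%. The shares overlapped for each transcript, with p = 0.429, 0.254 and 0.627 in the exact two-sided permutation test and 0.627 for each after adjustment over the 3. By level, FBtr0086085 had a log2 change of -0.27 (SE 0.11, unadjusted p = 0.0368, adjusted p = 0.651 in edgeR over 19249 transcripts), FBtr0086084 of -0.27 (SE 0.23, adjusted p = 0.926) and FBtr0086086 of 0.14 (SE 0.28, adjusted p = 0.989). None of the 3 passed the threshold, and 1 transcript of all tested did, or 0.0052%, while 7.24% had an unadjusted p under 0.05.

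**Figure D3:**
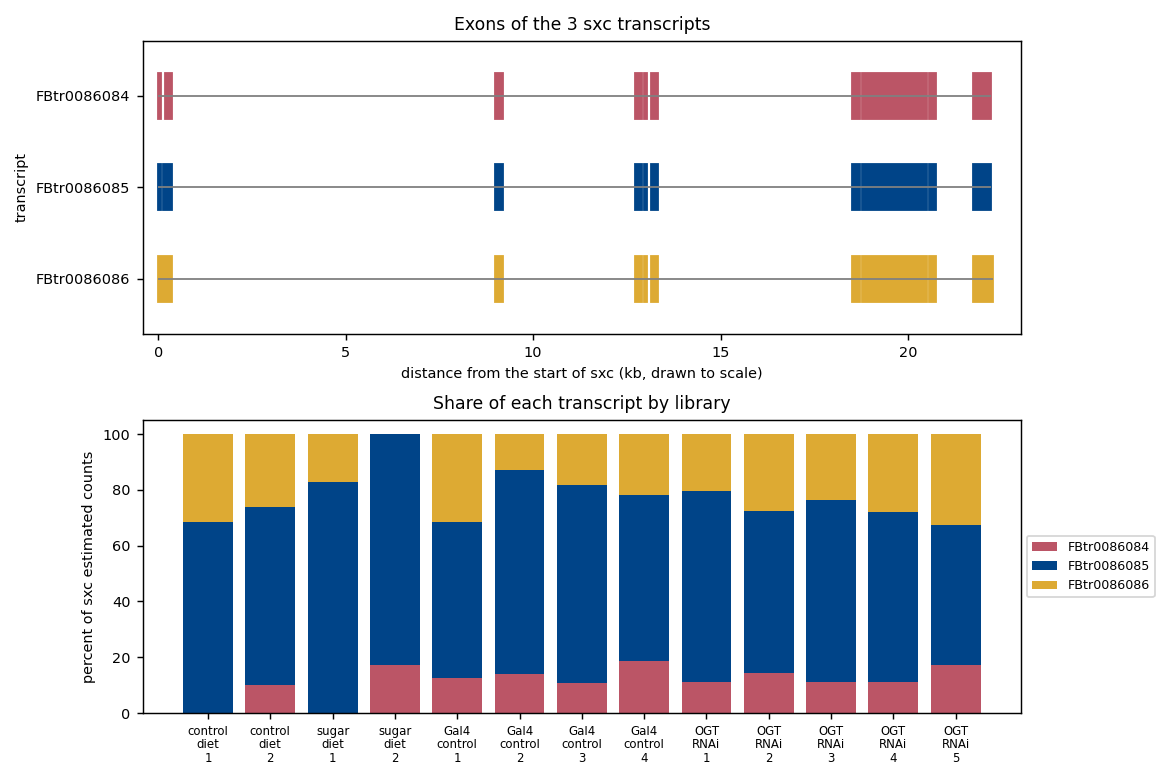
Top, exons (boxes) of the 3 sxc transcripts by distance from the start of the gene in kb, to scale. Bottom, the percent of sxc estimated counts given to each transcript in each of the 13 libraries; FBtr0086085 takes the largest part everywhere, from 50.12% in OGT RNAi replicate 5 to 82.78% in sugar diet replicate 1, and the minor transcripts reach 0 in diet libraries alone.

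The transcripts of Gfat1 were split by annotated start, a division chosen after their values were seen. Of its 9 transcripts 2 start 4079 bases upstream of the other 7, and 1 of these 2, FBtr0113694, held all the counts of the upstream start. Its share of Gfat1 counts was 21.66 and 18.12% on the sugar diet and 10.91 and 9.95% on the control diet. In level it was at 32.8 and 28.5 CPM against 16.1 and 13.7 CPM, while the transcripts of the other start were at 119 and 129 CPM against 131 and 124 CPM. Both sugar diet libraries were thus higher for the upstream start, and the groups overlapped for the other. The log2 change of FBtr0113694 was 1.02 (SE 0.21, 95% interval 0.40 to 1.63) with an unadjusted p of 0.0113 and an adjusted p of 0.435 in edgeR, which called 0% of 17404 transcripts and gave 8.38% an unadjusted p under 0.05. Over the alternatives the adjusted p ran from 0.00371 to 1.0: DESeq2 called it (1.03), as it did 1001 transcripts in all, and the authors' deposited table gives p = 0.0132 and q = 0.435. In the RNAi experiment, where all flies were on the sugar diet, the upstream start took 4.36 to 6.3% of Gfat1 counts in OGT RNAi and 4.27 to 7.14% in the controls (log2 change of FBtr0113694 0.10, SE 0.17, adjusted p = 0.98).

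**Figure D4:**
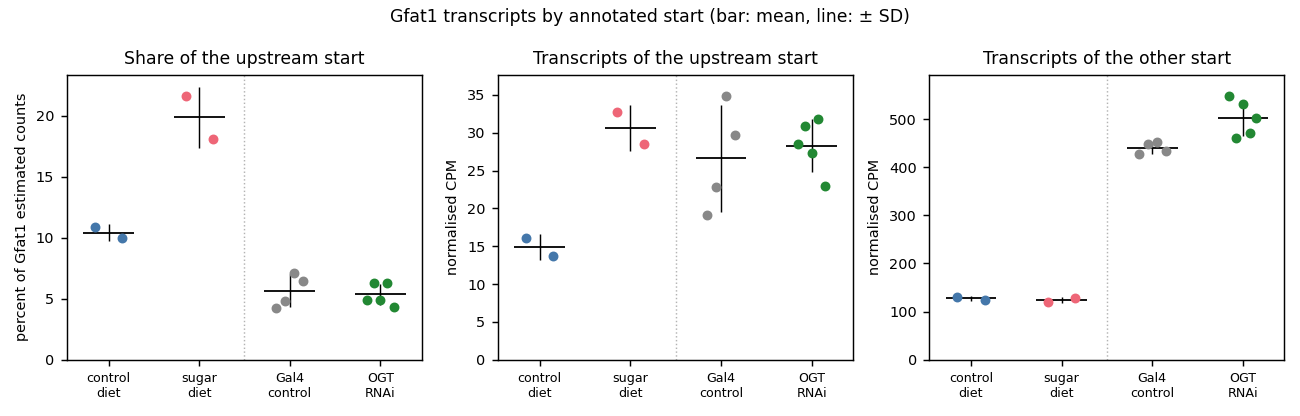
Gfat1 by annotated start in each library: the percent of Gfat1 estimated counts from the upstream start (left), its normalised CPM (middle) and the normalised CPM of the other start (right), all axes from 0. Points are libraries, bars means and lines ± SD; the 2 sugar diet libraries, at 21.66 and 18.12%, stand above the 2 control diet libraries, at 10.91 and 9.95%.

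Genes that feed the pathway were lower on the sugar diet in part. Of 5 supply genes 2 fell, beside 3.35% of all genes called lower, and the median log2 change was -0.24, beside 0.0 over all genes. Pgi, phosphoglucose isomerase, which makes the fructose-6-phosphate that Gfat uses, was at 261 and 267 CPM against 392 and 420 CPM. It fell by 0.62 on the log2 scale (SE 0.077, adjusted p = 5.79e-05), and it passed under every alternative run. Hex-C, a hexokinase, was at 11.7 and 12.0 CPM against 20.3 and 20.8 CPM and fell by 0.79 (SE 0.173, adjusted p = 0.00898). Hex-C missed the threshold in DESeq2 (adjusted p = 0.0574) and without control diet replicate 1 (0.0827) or 2 (0.097). The fat body markers apolpp and FASN1, the latter a lipid synthesis gene, were both called lower beside them by edgeR and DESeq2. The 4 fat body genes summed to 1500 to 1540 CPM against 2410 to 2490 CPM. EdgeR called markers of muscle (3 of 5) and glia (2 of 2 tested) higher. It also called markers of haemocytes (1 of 3) and epidermis (2 of 3) higher, all beside 3.12% of all genes. DESeq2 called the same markers higher, apart from the glial gene repo. Limma on TPM called only Cpr49Ah of the epidermis higher, and FASN1 but not apolpp lower. On that scale the median gene was at -0.25. The part of any of these markers in the result was not tested. In the RNAi comparison 0 of the 5 supply genes were called by edgeR, DESeq2 or limma, and 0 had an unadjusted p under 0.05, beside 1.27% and 12.9% of all genes in edgeR. The glutamine synthetase gene Gs2 had the smallest p there (928 to 1010 CPM against 1040 to 1100 CPM, log2 change -0.12, SE 0.061, adjusted p = 0.45), followed by the hexokinase gene Hex-A (-0.08, SE 0.093, adjusted p = 0.785).

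The salvage genes recycle GlcNAc from broken-down glycans, and 0 of 6 were called by edgeR or DESeq2 in either comparison, with 1 at an unadjusted p under 0.05 in each. Of all genes, edgeR called 6.47% on the diet and 1.27% in RNAi, and 17.7% and 12.9% had an unadjusted p under 0.05, so that 1 of 6 was near the share of all genes. Oscillin, the glucosamine-6-phosphate isomerase gene, which works against the Gfat step, was at 4.35 and 3.04 CPM on the sugar diet and 5.38 and 6.37 CPM on the control diet. These levels rest on 22 and 19 counts on the sugar diet and 43 and 56 on the control diet. The log2 change of Oscillin was -0.69 (SE 0.311, adjusted p = 0.251 in edgeR). Limma on TPM called it, on a scale where the median gene was at -0.25. The GlcNAc kinase gene CG6218 had log2 changes of 0.37 (SE 0.312, adjusted p = 0.618) on the diet and -0.28 (SE 0.128, adjusted p = 0.362) in RNAi, and the hexosaminidase gene Hexo2 had 0.13 in RNAi (SE 0.089, adjusted p = 0.576). The median log2 changes of the list were -0.06 and 0.03.

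Of 14 genes that consume UDP-GlcNAc or carry it to other uses, 11 were tested on the diet. Of these 0 were called by edgeR, DESeq2 or limma, 0 had an unadjusted p under 0.05, beside 6.47% and 17.7% of all genes in edgeR, and the median log2 change was 0.19, beside 0.0 over all genes. Mgat2, an N-acetylglucosaminyltransferase of N-glycan synthesis, had the smallest p there (43.8 to 45.7 CPM against 38.8 to 39.6 CPM, log2 change 0.19, SE 0.121, adjusted p = 0.462). Eogt, the extracellular O-GlcNAc transferase, followed (28.1 to 28.7 CPM against 24.3 to 24.7 CPM, log2 change 0.21, SE 0.141, adjusted p = 0.485). Neither gene overlapped between the diets, among 7 of the 11 tested that did not, beside 47.5% of all genes. Both signs turned on the TPM scale, where the median gene was at -0.25. In the RNAi comparison 2 of 13 tested rose, beside 1.04% of all genes called higher, and the median was 0.04. Eogt, which modifies secreted and membrane proteins where OGT does not reach, was at 33.5, 30.4, 30.1, 27.3 and 43.2 CPM in OGT RNAi and at 21.6, 23.6, 23.9 and 21.7 CPM in the controls. All 5 lay above all 4, and Eogt rose by 0.54 on the log2 scale (SE 0.115, adjusted p = 0.0333). kkv, the chitin synthase of cuticle, was at 15.3, 11, 13.4, 9.85 and 18.2 CPM against 6.9, 7.72, 7.06 and 9.78 CPM and rose by 0.80 (SE 0.175, adjusted p = 0.042), with the nearest pair at 9.85 and 9.78 CPM.

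Both calls were near the threshold. For Eogt 8 of 16 alternatives missed it, among them leaving out OGT RNAi replicate 1 or any of the 4 controls and limma on TPM, with log2 changes from 0.41 to 0.59 and adjusted p from 0.00396 to 0.123. For kkv 9 of 16 missed it, among them limma on TPM and leaving out OGT RNAi replicate 1 or 3 or any control. The log2 changes of kkv ran from 0.50 to 0.92 and the adjusted p from 0.00242 to 0.168. The epidermal markers, as the tissue that makes cuticle, summed to 344 to 470 CPM in OGT RNAi and 318 to 406 CPM in the controls. Of these 3 markers 0 were called by edgeR, DESeq2 or limma, beside 1.27% of all genes in edgeR. In edgeR 1 had an unadjusted p under 0.05, TwdlT (log2 change 0.40, adjusted p = 0.224), beside 12.9% of all genes. Cpr49Ah went the other way (-0.93, SE 0.526, adjusted p = 0.502), and grh was near 0 (0.01, SE 0.102, adjusted p = 0.979). The part of these markers in the kkv result was not tested.

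**Figure D5:**
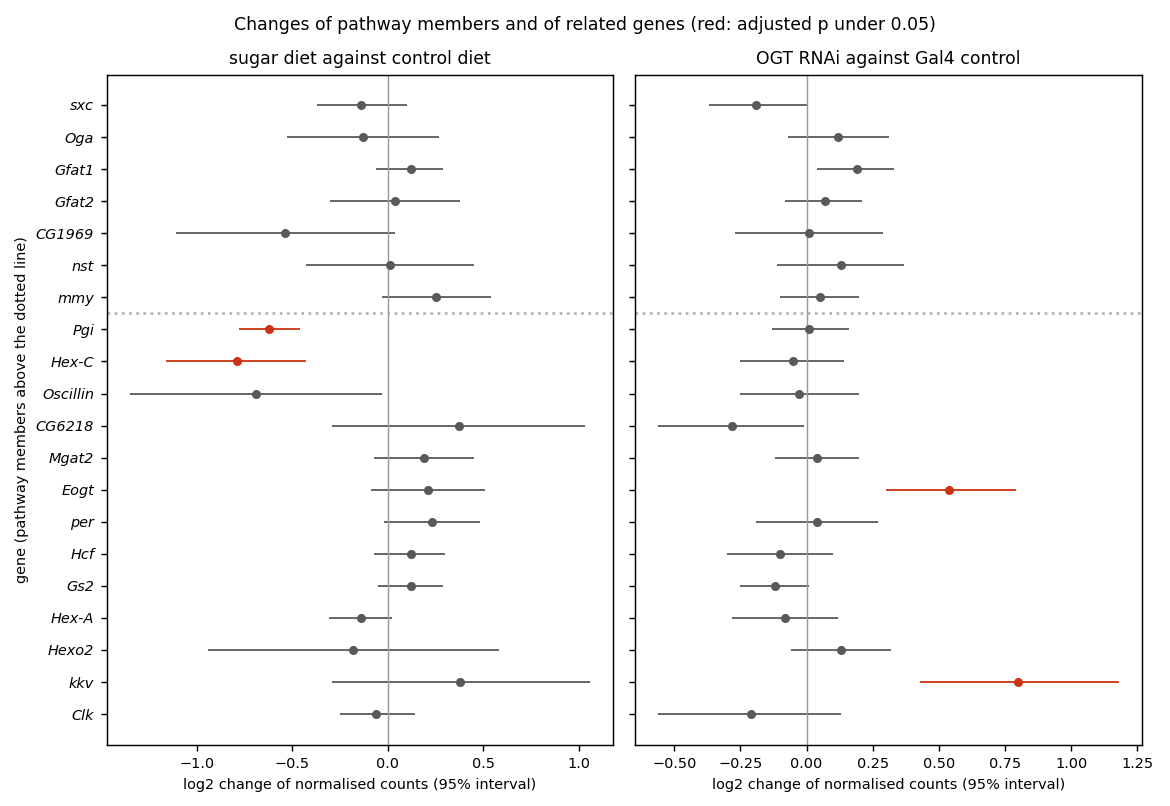
Log2 changes of normalised counts with 95% intervals for the 7 members (above the dotted line) and the related genes named in the text, on the diet (left) and in the RNAi comparison (right), red where the adjusted p in edgeR was under 0.05. Pgi and Hex-C fall on the sugar diet, Eogt and kkv rise in OGT RNAi, and no member is red.

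Genes for 4 proteins that carry O-GlcNAc were not called by edgeR, DESeq2 or limma in either comparison, and 0 had an unadjusted p under 0.05. With 6.47% and 1.27% of all genes called in edgeR, and 17.7% and 12.9% under that p, 0 of 4 is near the share of all genes. They were the Polycomb group gene ph-p, Hcf and the clock genes per and Clk. per had the smallest p on the diet (46.7 and 51.8 CPM against 41.7 and 42.3 CPM, log2 change 0.23, SE 0.119, adjusted p = 0.329 in edgeR), before Hcf (0.12, SE 0.088, adjusted p = 0.552). Both signs turned on the TPM scale, where the median gene was at -0.25. In RNAi, Clk had -0.21 (SE 0.155, adjusted p = 0.634) and Hcf -0.10 (SE 0.095, adjusted p = 0.728). These are transcript levels and carry no measure of the sugar on the proteins.

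The pattern of sxc over the 13 libraries was compared with that of 6414 genes, as the root mean square difference of log2 CPM centred within each experiment. The 5 most alike were Vps11 (0.056), a subunit of vacuolar tethering complexes, CG6966 (0.061), CG9003 (0.063), CG30440 (0.064) and CG32113 (0.065), where the median gene had 0.196. The log2 changes of these 5 ran from -0.15 to 0.03 on the diet and from -0.23 to -0.13 in RNAi, and none was called. These genes were ranked on the same libraries, group differences included, so changes close to those of sxc follow from how they were chosen. The other 6 members ranked from 3065 to 5929 of 6414, Gfat2 nearest and CG1969 farthest.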

How the data were processed

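RNA of proboscises was measured in 13 libraries of 4 groups, taken from the labels. Per the submitters' processing notes, the authors used Trimmomatic 0.22, kallisto 0.43 and sleuth. Genome build, annotation and settings are not given in the sources used here. The deposited tables hold estimated counts (expected counts) per transcript, which the authors made with kallisto and did not normalise, and 54.1% of them were not whole within a tolerance of 1e-6. They also hold the authors' TPM, scaled within each library. The authors' deposited result tables give effects as natural logs, beside p-values and q-values. The effective length of each transcript, in bases, is also deposited by the authors. Positions come from the Ensembl BDGP6 annotation; 9422 of 9466 genes with a position in both it and the authors' diet table had the same position, the 7 members included.

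Estimated counts were summed per gene and rounded, leaving out 50 transcripts with no gene name (0.0418 to 0.0567% of counts). The two-sided robust quasi-likelihood test of edgeR 4.0.16 (R 4.3.3) was run after filterByExpr, at a minimum count of 10 and a minimum total of 15, with TMM scaling, each experiment on its own. P-values were adjusted by Benjamini-Hochberg over all genes or transcripts tested and called at an adjusted p under 0.05. Alternatives were RLE scaling, DESeq2 1.42.0, no filter, a length offset, limma 3.58.1 on log2(TPM + 1) and log2(TPM + 0.1), a replicate block and leaving out each library. Transcript shares were tested by exact permutation, and the smallest p is 0.333 on the diet and 0.0159 in RNAi. The test was checked on simulated data. It called 43.1% of simulated 1.5-fold changes in the diet design and 77.3% in the RNAi design. For 2-fold changes it called 76.6% and 92.5%. Figures were drawn with matplotlib 3.10.9.

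The members and lists were chosen with earlier results of these data known. Named are the members, the sxc transcripts, the Gal4 and EGFP sequences, and from each of 4 lists up to 4 called genes with the smallest p or, with none called, 2, and the 5 genes most like sxc among those with a mean of at least 5 CPM. In the list of UDP-GlcNAc users 1 gene is not reported here, and the list's counts and medians leave it out. The labels call the libraries of a group biological replicates, and no library pair of a group agreed within sampling noise. The counts are of reads and, as far as the sources used here say, not of molecular identifiers, so limits set by 0 counts cover counting error only.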

Additional observations from a re-analysis of the deposited data

Results flagged for a closer look

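Of 58 groups of values examined, 4 had a library far from the others, by Dixon's rule on the gap over the range, which chance gives in about 1 in 20 groups. The level of sxc in OGT RNAi replicate 2 was 170 CPM, where the other 4 RNAi libraries lay between 133 and 138 CPM. Vps11 was highest in that library too, at 39.2 CPM against 32.1 to 33.8 CPM, which is no separate result, since Vps11 was chosen as the gene most like sxc over the same libraries. Gs2 was lowest in OGT RNAi replicate 5, at 928 CPM against 984 to 1010 CPM. CG6218 was highest in Gal4 control replicate 3, at 9.27 CPM against 7.14 to 7.43 CPM.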

How the results depend on the processing

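The sxc change kept its direction and stayed short of the threshold under all 11 diet and 16 RNAi alternatives. Called genes on the diet numbered 571, against 333 with DESeq2 and 195 to 938 with 1 library left out (938 without sugar diet replicate 2, 195 and 228 without control diet replicates 1 and 2). In RNAi they numbered 119, against 266 with DESeq2 and 42 to 265 with 1 left out, the highest without OGT RNAi replicate 4. Called transcripts numbered 0 on the diet, against 1001 with DESeq2 and 0 with 1 left out, and 1 in RNAi, against 355 with DESeq2 and 1 to 15 with 1 left out. With 1 diet library left, it was assumed to vary like the other group. The replicate numbers did not pair the samples: same-numbered libraries deviated together with r = 0.005 on the diet and 0.164, -0.249, -0.021 and -0.047 in RNAi. With a replicate block, which drops OGT RNAi replicate 5, 728 diet genes and 88 RNAi genes were called, 0 transcripts in RNAi and 0 on the diet, and the CG1969 change in RNAi turned to -0.068. The cause of these differences was not tested.

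Signs of small uncalled diet changes turned on the TPM scales (pseudocounts 1 and 0.1), where the median gene was -0.25 and -0.28: Gfat1 -0.14 and -0.14, Gfat2 -0.23 and -0.25, nst -0.23 and -0.26, mmy -0.034 and -0.036, per -0.054 and -0.059, Hcf -0.21 and -0.21, Mgat2 -0.064 and -0.067, Eogt -0.06 and -0.063, CG9003 -0.26 and -0.27, and CG6218 -0.0042 on the first alone. nst turned to -0.0026 without the filter, and CG32113 to 0.00076 with RLE and 0.0021 with DESeq2. CG1969 in RNAi was -0.036 with the length offset and -0.073 and -0.078 on the TPM scales. With 1 library left out, the diet ranges that crossed 0 were -0.059 to 0.12 for Gfat2, -0.096 to 0.12 for nst, -0.057 to 0.12 for CG9003, -0.094 to 0.093 for CG32113 and -7.36 to 7.75 for FBtr0086084 (share -4.99 to 12.4 percentage points). Those in RNAi were -0.08 to 0.09 for CG1969, -0.07 to 0.40 for FBtr0086086, -0.027 to 0.26 for FBtr0113694 and -2.03 to 0.583 points for the FBtr0086084 share. Depth limits the lowest members: CG1969 had 21 to 62 counts in the diet libraries.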

Other observations

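Of the member transcripts tested in genes with several transcripts, the shares of 5 of 14 did not overlap between the diets and of 1 of 17 between the RNAi groups, beside 34.3% and 2.29% of all such transcripts, and 0 of these 6 passed the threshold in level in edgeR. Among those tested, FBtr0085474 and FBtr0330296 of CG1969 had the same estimated counts in every library and are in effect 1 measurement. FBtr0079268, the longest-coding mmy transcript, took 87.89 and 85.81% of mmy counts on the sugar diet and 80.21 and 75% on the control diet. Its log2 change was 0.39 (SE 0.19, adjusted p = 0.76 in edgeR). FBtr0302846 took 1.88 to 2.73% of Gfat1 counts in OGT RNAi and 2.94 to 3.55% in the Gal4 controls, with no overlap, and had a log2 change of -0.39 (SE 0.16, unadjusted p = 0.037, adjusted p = 0.652). The Gfat1 transcript FBtr0302847 took 17.44 and 18.68% on the sugar diet and 23.99 to 24.46% on the control diet (log2 change -0.33, SE 0.17, adjusted p = 0.788). FBtr0310267 of CG1969, too low to be tested, took 0% of CG1969 counts in both sugar diet libraries and 7.0 and 16.51% on the control diet. These transcripts were named after their values were seen. The EGFP sequence had 0 counts in all 13 libraries, which allows up to 0.2161 to 0.5326 CPM.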
